A study of Mus musculus with 9 samples.

Results

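The cells described here were those of a mouse bone marrow Drop-seq series that carried RNA of the genes F13a1, Ccr2, Ms4a6c, Fn1, Ctss, Mpeg1, Tgfbi and Pld4, a group of monocyte and macrophage-like cells. A cell was a member when these 8 genes together gave 3 or more raw counts, when S100a8 and S100a9 made up less than 2% of its counts and Mpo, Elane, Prtn3 and Ctsg less than 0.5%, and when Vpreb1, Igll1, Cd79a and Cd79b together gave fewer than 2 counts. The exclusions were aimed at neutrophil precursors and B-lineage cells. They also left out 42 cells with 3 or more counts of the 8 genes, so monocyte-lineage cells may be among those lost. Of 900 barcodes 880 were kept, and 65 of the 880 were members. Drop-seq tags the RNA of each cell, at its 3' end, with a barcode carried on a bead. NG2-cre/Pot1a fl/fl mice gave 4 libraries and NG2-cre/Pot1a wt/wt mice 5, each deposited as 100 barcodes. All came from unselected marrow of mice given as C57BL/6, aged 2 to 3 weeks. The study lists the floxed Pot1a line under a strain name for a mixed background and describes no backcrossing. The strain background of the genotypes may therefore differ. Both groups carry NG2-cre, a Cre recombinase under the promoter of NG2 (gene Cspg4), which is active in mesenchymal and pericyte-like cells, and in fl/fl animals it removes Pot1a, a telomere-binding protein, from those cells. The comparison asked how blood cell formation differs when the surrounding mesenchymal cells lack Pot1a. No label says which mouse a library came from, and the legend of the study gives 3 mice per group, so a mouse may stand behind more than 1 library. The p-values below measure only how much libraries vary, technical variation included, and would be too small in that case.

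Monocytes arise in the marrow from progenitors that also give rise to neutrophils. Commitment to the monocyte side depends on the transcription factors PU.1 (gene Spi1), Irf8 and Klf4, while Cebpe and Gfi1 belong to the neutrophil side. Classical mouse monocytes carry Ly6C (gene Ly6c2) on their surface and leave the marrow through the chemokine receptor Ccr2. In tissues they can become macrophages, dendritic cells or osteoclasts, the cells that resorb bone.

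The members numbered 9, 5, 8 and 8 in fl/fl libraries 1 to 4, and 7, 13, 3, 7 and 5 in wt/wt libraries 1 to 5. They held 158188 counts together, and 87902 of these came from the 30 fl/fl members and 70286 from the 35 wt/wt members. Total counts per library ran from 119459 in fl/fl 3 to 465277 in fl/fl 1. Among the 36 pairs of libraries only wt/wt 2 and wt/wt 3 shared barcodes. The 19 shared barcodes were dropped from wt/wt 3, and 2 of these would have been members there, as they were in wt/wt 2. Judged by Xist and Y-linked genes, fl/fl 2, wt/wt 2 and wt/wt 3 came from males and the others from females. Pot1a gave 56 counts in all kept cells and 4 in the members, and Cspg4, whose promoter drives the Cre, gave 0 counts in the members. The Pot1a counts of kept cells were 10, 3, 1 and 15 in fl/fl libraries, against 3, 9, 7, 6 and 2 in wt/wt libraries. This level does not check the genotype labels, since the deletion was directed to other cells.

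The rule genes were not spread evenly over the members. Ccr2 had a count in 55 of the 65 cells, Ms4a6c in 54, Ctss (cathepsin S, a lysosomal protease) in 53 and F13a1 (the A chain of coagulation factor XIII) in 48. Mpeg1 (perforin-2) was counted in 32 cells, Pld4 in 27, and Fn1 (fibronectin) and Tgfbi in 25 each. The 8 genes summed to 3 to 66 counts per cell with a median of 14, and 40 members had counts of at least 5 of them, whereas 10 members had counts of only 1 or 2. At the edge of the rule, 5 members had exactly 3 such counts and 10 cells with 2 passed the exclusions. Ly6c2, which the rule does not use, was counted in 2 of those 5 members, in 0 of those 10 cells, and in 50 of the other 60 members. A further 42 kept cells reached 3 rule counts but were left out, 23 of them for primary granule genes, 14 for S100a8 and S100a9 and 10 for B-lineage genes, some for more than one.

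The levels of the rule genes are given as a description, because they chose the cells. F13a1 (chromosome 13, 36867178 to 37050244, GRCm38) had 1804, 1530.4, 1157 and 1867 CPM (a gene's counts scaled to a library total of 1000000) in the summed members of fl/fl libraries 1 to 4, against 1626, 1929.7, 1227, 2663 and 1769 CPM in wt/wt libraries 1 to 5. Ccr2 (chromosome 9, 124101950 to 124113557) had 1353, 1080.3, 1389 and 2539.8 CPM in fl/fl, against 911, 2330.2, 1636, 3454 and 1448 CPM in wt/wt. The 2 genotypes overlapped for both genes. Averaged over the 9 libraries, F13a1 had 1730.4 ± 443 CPM (SD) in the members and 56.4 ± 39.2 CPM in the other 815 kept cells. Ctss lay at 1736 CPM in fl/fl 3 and 2863 CPM in wt/wt 3, and between 325 and 965 CPM in the other 7 libraries. In wt/wt 3, 13 Ctss counts came from 1 of its 3 members.

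Promoter sequence of genes that mark these cells was searched for GAGGAAGT, a form of the site bound by PU.1 and related ETS factors, on both strands (reverse complement ACTTCCTC). The windows, from RefSeq (GRCm38.p6), run from 250 bases before to 50 bases after each start. Of the 8 rule genes 7 had a window, and F13a1, Ctss and Pld4 held the motif, as did Ly6c2, which held it 2 times. F13a1 had 2 windows, and only 1 of them held it. Ly6c2 had 2 windows that both held it, and only 1 of these is shown. Over all genes 3.69% of 27025 held it, and 3.20% of 32851 windows. Windows that hold it are shown here, 1 per gene, 5' to 3' on the strand of the gene, with the motif in capitals. They are the minus strand at chr13:37049164-37049463 (F13a1), the plus strand at chr3:95526536-95526835 (Ctss) and chr12:112760405-112760704 (Pld4), and the minus strand at chr15:75111922-75112221 (Ly6c2).
F13a1: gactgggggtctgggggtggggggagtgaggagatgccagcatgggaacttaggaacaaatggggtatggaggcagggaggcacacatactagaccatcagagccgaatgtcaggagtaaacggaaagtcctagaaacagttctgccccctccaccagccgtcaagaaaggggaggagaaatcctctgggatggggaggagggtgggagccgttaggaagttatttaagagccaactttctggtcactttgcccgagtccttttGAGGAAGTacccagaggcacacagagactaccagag
Ctss: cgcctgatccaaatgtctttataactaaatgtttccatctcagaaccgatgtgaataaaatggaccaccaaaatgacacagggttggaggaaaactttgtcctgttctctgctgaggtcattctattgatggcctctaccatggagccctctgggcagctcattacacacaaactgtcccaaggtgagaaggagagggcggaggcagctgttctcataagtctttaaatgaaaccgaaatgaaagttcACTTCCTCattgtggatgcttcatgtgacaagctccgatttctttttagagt
Pld4: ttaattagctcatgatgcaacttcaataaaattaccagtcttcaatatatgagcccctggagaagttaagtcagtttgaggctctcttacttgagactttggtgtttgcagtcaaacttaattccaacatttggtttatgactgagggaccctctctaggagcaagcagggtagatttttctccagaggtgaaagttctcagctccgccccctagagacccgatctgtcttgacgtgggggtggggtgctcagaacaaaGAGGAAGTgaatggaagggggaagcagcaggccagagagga
Ly6c2: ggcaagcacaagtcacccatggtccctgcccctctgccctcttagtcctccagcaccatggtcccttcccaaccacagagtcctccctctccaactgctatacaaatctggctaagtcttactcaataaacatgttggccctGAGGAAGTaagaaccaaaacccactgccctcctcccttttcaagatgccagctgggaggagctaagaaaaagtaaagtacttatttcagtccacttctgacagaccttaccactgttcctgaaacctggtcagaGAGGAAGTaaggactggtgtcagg
A match is a stretch of letters and not a measured binding site. Among the 20 leading genes described next, 16 had a window and S100a4 and Ctsc held the motif. Spi1, which encodes PU.1, had 280.3 ± 144 CPM in the members (SD over 9 libraries), 310.2 ± 113 CPM in the S100a8 and S100a9-rich cells described below, and 36.2 ± 17.8 CPM in cells outside the myeloid sets.

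Beyond the rule, the leading genes of the members included S100 genes, vimentin, lysosomal genes and transcription factors of monocytes. The 20 genes with the largest ratio to other kept cells (50 CPM added to each mean) ran from Ahnak, at 9.96 times, to Gria3, at 4.85 times, and 13 of the 20 were higher in the members in all 9 libraries. The calcium-binding S100 family gave 3 of them, S100a4 (447 ± 307 CPM in the members, 12.3 ± 11.2 CPM in other kept cells, SD over 9 libraries), S100a6 (969 ± 333 against 125 ± 67.6 CPM) and S100a10 (639.6 ± 270.0 against 91.9 ± 33.9 CPM). Vim, the intermediate filament vimentin, had 1335 ± 399 CPM in the members and 186 ± 62.6 CPM in the others. Lgals3 (galectin-3, abundant in monocytes and macrophages) had 849 ± 456 against 79.3 ± 33.0 CPM. Of the lysosomal genes, Psap (prosaposin, the precursor of lipid-degrading activators) had 1023 ± 349.9 against 101.9 ± 40.1 CPM, and Cst3 (cystatin C, an inhibitor of cathepsins) 1694 ± 545 against 274 ± 78.4 CPM. Ctsc, the protease that activates granule serine proteases, had 331 ± 225 against 22.7 ± 15.8 CPM. The receptor gene Il6ra had 418 ± 236 against 35.7 ± 19.5 CPM. The other leading genes were Klf4, Ccl6, Ccdc88a, Irf8, Fos, Lat2, Emb, March1 and Tmsb10. These are descriptions of cells picked by expression, and no test was made of them. Of the 815 other kept cells, 515 lay outside the myeloid sets described below. In the primary granule cells, defined there, Cst3 was at 736 ± 278 CPM, Vim at 437 ± 234 CPM and Emb at 343 ± 161 CPM (SD over 7 libraries). Psap was at 104 ± 70.6 CPM and S100a4 at 11.9 ± 26.3 CPM in the same cells.

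**Figure D1:**
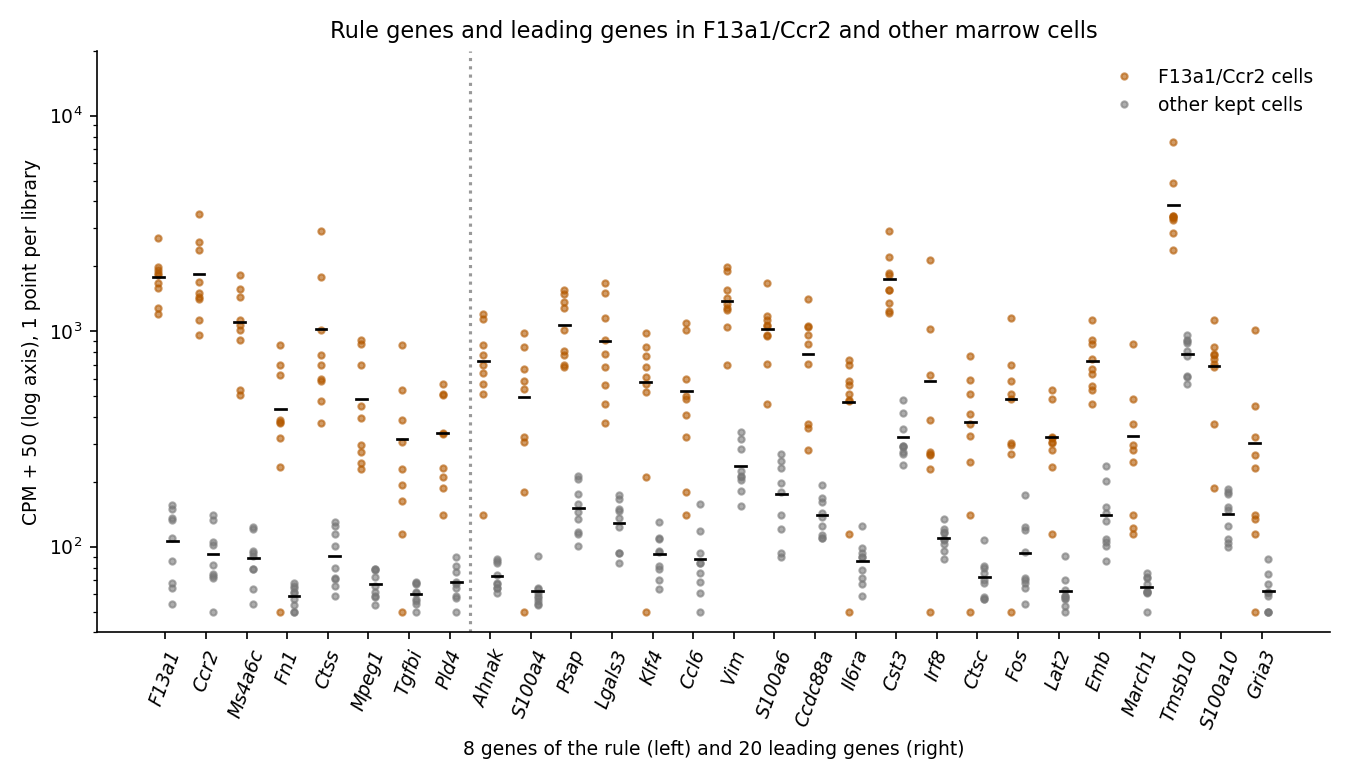
Levels of the 8 rule genes (left of the dotted line) and the 20 leading genes (right), as CPM plus 50 on a log axis, in the summed F13a1/Ccr2 cells and in the other kept cells of each of the 9 libraries; black bars are means over libraries. The mean of F13a1 was 1730.4 CPM against 56.4 CPM, and 13 of the 20 leading genes were higher in the F13a1/Ccr2 cells in all 9 libraries.

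Beside the other myeloid cells of the same marrow, the members had higher levels of Klf4, Zeb2 and Irf8, while Spi1 was not higher in them. Those other cells were the 257 kept cells with 2% or more S100a8 and S100a9 counts (neutrophil precursors and neutrophils) and the 43 with 0.5% or more primary granule gene counts and less S100a8 and S100a9, both with fewer than 2 B-lineage counts. In the list of 17 myeloid transcription factors, 16 were in the tables and 15 were counted in members. Klf4 had 531 ± 294 CPM in the members, 73.1 ± 94.5 CPM in the primary granule cells and 40.4 ± 55.7 CPM in the S100-rich cells (SD over 9, 7 and 9 libraries with at least 3 such cells). Zeb2, a transcriptional repressor needed for monocyte and dendritic cell formation, had 691 ± 304, 288 ± 90.6 and 62.2 ± 55.4 CPM in the same order. Irf8 had 536 ± 649, 169 ± 119 and 18.4 ± 23.9 CPM. Its spread in the members rests on wt/wt 1 and wt/wt 5 (976 and 2091 CPM, against at most 579 CPM elsewhere), where 8 of 15 and 11 of 13 Irf8 counts came from 1 cell each. Spi1 had 280.3 ± 144, 299 ± 133 and 310.2 ± 113 CPM in that order. Cebpe went the other way, with 3.4 ± 10.2, 50.8 ± 86.8 and 328 ± 143 CPM in that order. Gfi1 had no count in the members, which allows up to 19.0 CPM (counting error only). It was low elsewhere too, at 28.2 ± 38.6 CPM in the primary granule cells and 25.4 ± 23.9 CPM in the S100-rich cells. Gfi1 therefore does not set the members apart.

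The genes of phagocytosis were shared with the neutrophil side to different degrees. Lyz2 (lysozyme M) was high in both, with 6795 ± 4494 CPM in the members, 465 ± 178 CPM in the primary granule cells and 5306 ± 1229 CPM in the S100-rich cells. The NADPH oxidase subunit gene Cybb had 618 ± 229, 103 ± 65.8 and 1203 ± 404 CPM in that order, and its partner Cyba 1002 ± 277, 316 ± 86.7 and 1158 ± 202 CPM. Tyrobp and Fcer1g, adaptors that carry the signal of Fc and related receptors, had 1322 ± 441 and 884 ± 457 CPM in the members and 681 ± 125 and 597.5 ± 116 CPM in the S100-rich cells. Ly6c2 had 2471 ± 1144 CPM in the members, 2839 ± 1138 CPM in the primary granule cells and 1239 ± 361 CPM in the S100-rich cells, so it did not set the members apart from the primary granule cells. Csf1r, the receptor for the main growth factor of monocytes, was at 73.2 ± 52.8, 13.1 ± 22.5 and 8.6 ± 10.2 CPM.

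**Figure D2:**
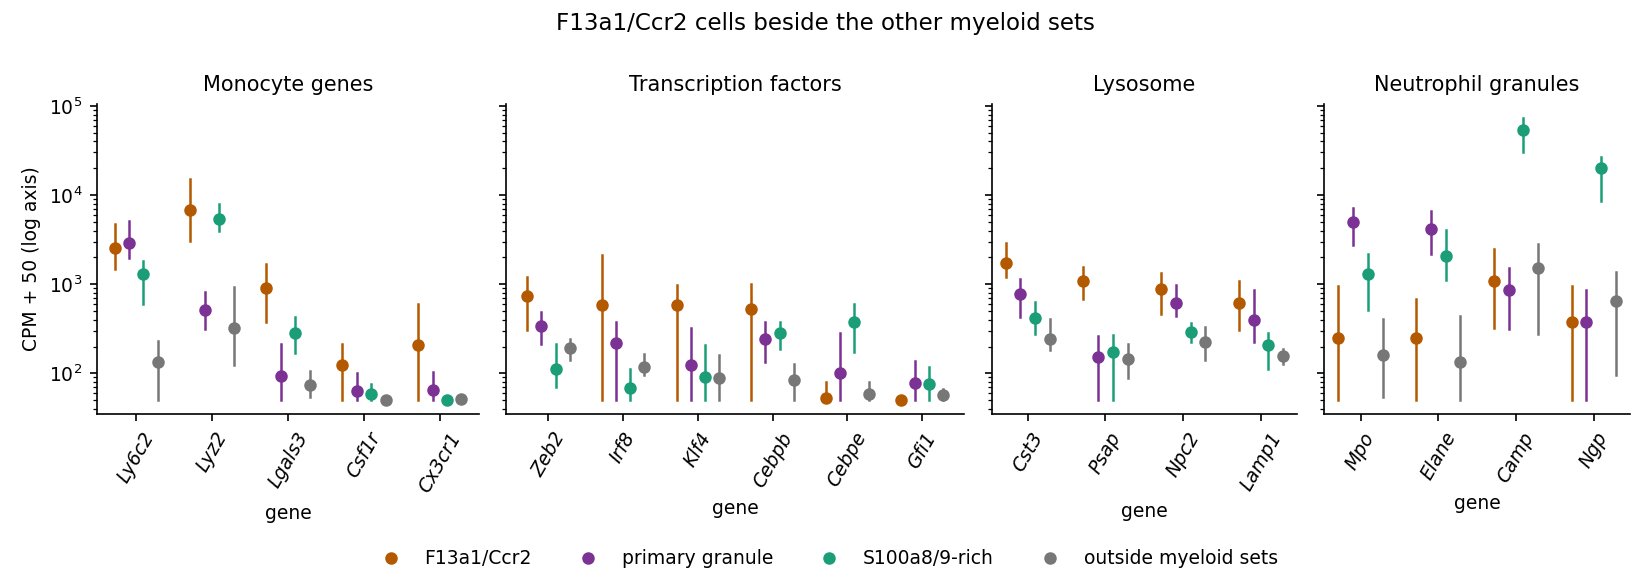
Mean CPM plus 50 on a log axis for genes of 4 groups in the F13a1/Ccr2 cells, the primary granule cells, the S100a8 and S100a9-rich cells and the kept cells outside these sets; points are means over libraries and lines run from the lowest to the highest library. Klf4 averaged 531 CPM in the F13a1/Ccr2 cells and 40.4 CPM in the S100-rich cells, whereas Cebpe averaged 3.4 and 328 CPM. Mpo and Elane are shown as a description, since they were used to exclude members and to define the primary granule cells.

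Genes typical of other cells were counted in most barcodes. Camp, a granule gene of neutrophils, had a count in 70.8% of the members and in 76.4% of the 199 cells with 2 or more B-lineage counts, at median depths of 2181 and 2546 counts, and the globin gene Hbb-bs in 92.3% and 97.5%. These shares were similar in both sets, and free RNA was not told apart from a cell's own RNA. Ly6c2 differed more between these cells. It was counted in 52 of 65 members (80.0%, or 77.2% of the 57 members of at least 1000 counts when thinned to 1000) and in 16.6% of the B-lineage cells (9.89% of 182 when thinned). Mki67 or Top2a, genes of dividing cells, was counted in 58 of 65 members (89.2%) but also in 94.0% of the B-lineage cells and 78.6% of the S100-rich cells, so no statement on division is made from it. The 17 G2/M genes made up 0 to 3.73% of the counts of a member, with a median of 1.73%.

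The name of the group was checked against markers, and the defining C1q genes of macrophages were at 0 in all but 1 member. Of 19 resident macrophage genes 16 were in the tables and 14 had a count in some member, but their sum was 379 ± 274 CPM in the members and 242 CPM on average in the other kept cells, and 22 of 65 members had a count. The complement genes C1qa, C1qb and C1qc gave 8 counts, all in 1 cell of wt/wt 2, and Axl and Fcna gave 0. Osteoclast genes had 0 counts for Mmp9, Ocstamp, Atp6v0d2 and Itgb3, and summed to 75.3 ± 71.1 CPM in the members against 184 CPM in the other cells. A gene with 0 counts over all members allows up to 19.0 CPM (3 of 158188 counts, counting error only). Of the 20 classical monocyte genes 19 were in the tables and 18 were counted in members, and only Cd14 was at 0. They summed to 14957 ± 5778 CPM in the members and 3772 CPM in the other cells, and Lyz2 alone gave 6795 CPM of the member sum. At least 3 counts of them were found in 64 of 65 members, but also in 248 of the 257 S100-rich cells, 42 of the 43 primary granule cells and 50.3% of the B-lineage cells, so this count does not set the members apart. Of the 12 non-classical monocyte genes 10 were counted in members, and Treml4 was at 0. The list summed to 756 CPM in the members and 256 CPM in the other kept cells. Its highest genes were Spn (176 ± 203 CPM) and Cx3cr1 (159 ± 186 CPM). Spn was also at 101 CPM in the primary granule cells and 93.8 CPM in the S100-rich cells. Fabp4 (15.1 CPM) and Cd36 (17.2 CPM) were lower in the members than outside the myeloid sets (130 and 51.0 CPM). A count of that list was found in 39 of 65 members, and 3 or more counts in 11. The cells are called F13a1/Ccr2 cells below, after the rule, although 8 members had a count of neither gene.

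Not all members looked alike. In 12 of the 65, 3 or more counts came from genes of another cell type; these gene sets were chosen after the cells had been seen. T and NK cell genes were held by 5 members, with Ccr2 as the rule gene that admitted them (3 to 10 Ccr2 counts in each). One of these, in fl/fl 1, had 14 counts of Trbc2 (the T-cell receptor beta chain) and 22 of the chemokine gene Ccl5, and another, in wt/wt 2, had 19 of the granule protease gene Gzma. One cell of wt/wt 4 held 56 counts of Mcpt8 and 16 of Prss34, proteases of basophils. Siglech and Tcf4, genes of plasmacytoid dendritic cells, had 10 and 14 counts in a cell of wt/wt 1 and 4 and 2 counts in a cell of wt/wt 5, and these 2 cells held the 8 and 11 Irf8 counts given above. MHC class II genes, which present antigen, gave 171 of their 179 member counts (Cd74, H2-Aa, H2-Ab1 and H2-Eb1) in 4 cells of wt/wt 1, 2 and 3, and the C1q-bearing cell was one of these. Of the 12 cells 9 had no Ly6c2 count, against 4 of the other 53, and their median rule gene count was 6, against 15. They made up 2 of 30 fl/fl members and 10 of 35 wt/wt members. By library they numbered 1, 0, 0 and 1 in fl/fl and 3, 4, 1, 1 and 1 in wt/wt.

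**Figure D3:**
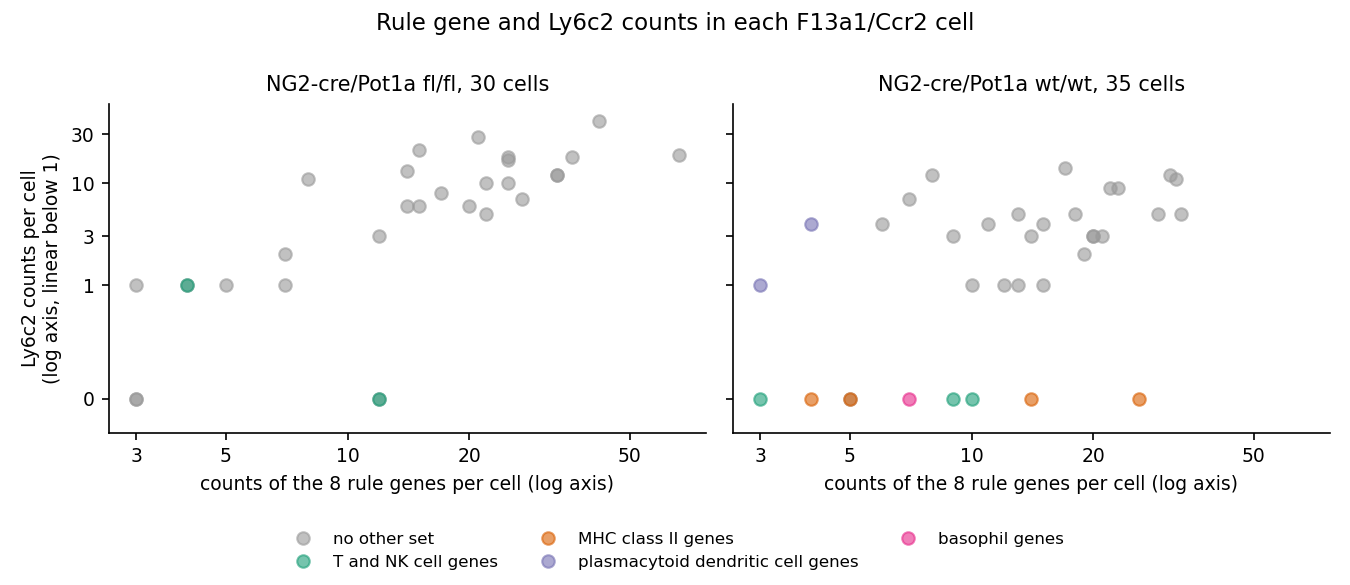
Ly6c2 counts against the summed counts of the 8 rule genes in each F13a1/Ccr2 cell, both on log axes (Ly6c2 linear below 1), for the 30 fl/fl cells (left) and the 35 wt/wt cells (right); colours mark cells with 3 or more counts of genes of another cell type, and points with equal counts overlap. Of the 12 coloured cells, 9 lie at 0 Ly6c2 counts.

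The share of F13a1/Ccr2 cells in the marrow did not differ between genotypes beyond the spread between libraries, which was wide. They were 9%, 5%, 8% and 8% of the kept cells in fl/fl libraries 1 to 4, against 7%, 13%, 3.70%, 7.07% and 5% in wt/wt libraries 1 to 5. The highest and the lowest share were both in wt/wt libraries, wt/wt 2 (95% Wilson interval 7.76% to 21.0%) and wt/wt 3 (1.27% to 10.3%), the pair that shared barcodes. The means were 7.5% ± 1.73 in fl/fl (SD, n = 4) and 7.15% ± 3.56 in wt/wt (SD, n = 5). The difference of 0.345 percentage points had a 95% interval of -4.95 to 4.55 (2-sided exact permutation test over the 126 ways to assign the libraries, p = 0.865, where the smallest possible p is 0.0079). Among myeloid cells alone the share was 16.5% ± 6.42 in fl/fl and 20.6% ± 8.39 in wt/wt, a difference of -4.09 points (interval -16.0 to 6.91, exact permutation p = 0.468). It was -0.279 points without the 12 cells that held genes of other types (exact permutation p = 0.960). Without those 12 cells the difference among kept cells was 1.89 points (exact permutation p = 0.270). The exclusions of the rule bear on this share. All kept cells with 3 or more rule gene counts, excluded or not, made up 14.5% ± 2.65 in fl/fl and 10.1% ± 4.15 in wt/wt (exact permutation p = 0.119), and the cells left out numbered 5, 12, 3 and 8 in fl/fl, against 1, 2, 3, 7 and 1 in wt/wt. Both intervals leave room for differences of several points in either direction. The median depth of a member was 2615 ± 1437 counts in fl/fl and 1937 ± 502 counts in wt/wt (exact permutation p = 0.349), and its part in the shares was examined by thinning each cell to 1000 counts, which gave a difference of 0.0356 points (exact permutation p = 1). That comparison rests on the deeper cells, since the 110 kept cells under 1000 counts were left out, 56 of them in fl/fl 3 and 46 in wt/wt 5.

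**Figure D4:**
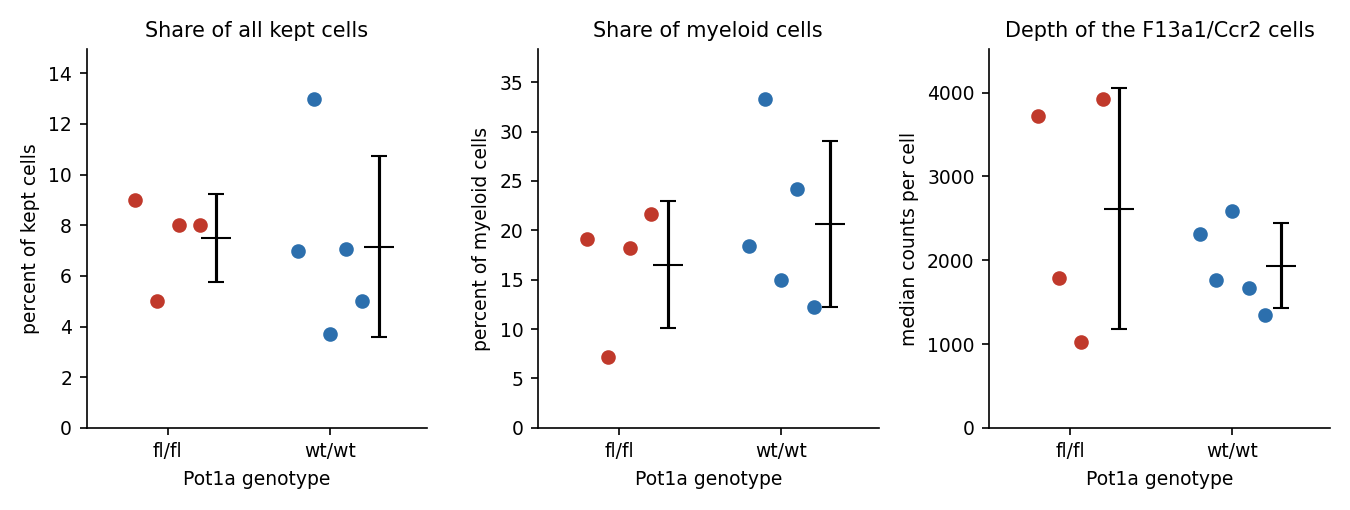
Share of F13a1/Ccr2 cells among kept cells (left) and among myeloid cells (middle), in percent, and their median counts per cell (right), with 1 point per library and the mean ± SD in black; fl/fl has 4 libraries and wt/wt 5. The groups overlap in all 3 panels, with means of 7.5% and 7.15%, 16.5% and 20.6%, and 2615 and 1937 counts.

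No gene passed the test between genotypes within the F13a1/Ccr2 cells. Counts were summed over the members of each library and tested with edgeR, and 226 genes were abundant enough to be tested. Of these, 0 were called at an adjusted p below 0.05 in either direction (0% of genes), and 11 had an unadjusted p below 0.05 (4.87%). DESeq2, the other tool run, called 2 (Mndal and Gm26924, both lower in fl/fl). The median log2 fold change over all 226 genes was -0.01. For 3 higher and 3 lower genes the libraries of the genotypes did not overlap (1.33% of genes each way). With 3 to 13 cells behind each library sum, only abundant genes could be tested. Of the 8 rule genes 4 were among the 226, and of the 20 leading genes 9.

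The 2 genes of smallest p were both lower in fl/fl. Mndal (chromosome 1, 173849126 to 173942491), an interferon-induced gene of the Ifi200 family, had 226, 360.1, 579 and 306 CPM in fl/fl libraries 1 to 4, against 781, 1129, 818, 1151 and 1287 CPM in wt/wt libraries 1 to 5. Every fl/fl library lay below every wt/wt library, and the gene was counted in 13 of 30 fl/fl members and 28 of 35 wt/wt members. The means were 368 ± 151 CPM in fl/fl and 1033 ± 222 CPM in wt/wt (SD, n = 4 and 5), a log2 fold change of -1.74 ± 0.41 (SE), which missed the threshold (edgeR adjusted p = 0.0643). In the other kept cells of the same libraries Mndal was at 135 ± 59.8 CPM in fl/fl and 224 ± 43.6 CPM in wt/wt (log2 fold change -0.71 ± 0.28, edgeR adjusted p = 0.550). The test of the difference between both effects gave -1.01 ± 0.56 (edgeR adjusted p = 0.818). Genes of this family are close copies of each other, and how reads were split between them is not given in the sources used here.

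Gm26924, a gene model without a position in the annotation used here (GENCODE M21), had 846, 720.2, 1736 and 673 CPM in fl/fl, against 911, 1384, 3817, 6765 and 3699.5 CPM in wt/wt. The groups overlapped. The means were 994 ± 500.0 CPM in fl/fl and 3315 ± 2335 CPM in wt/wt, and the log2 fold change of -1.90 ± 0.48 missed the threshold too (edgeR adjusted p = 0.0695). Single cells carried much of the wt/wt level, with 65 of 94 counts of wt/wt 4 and 22 of 28 counts of wt/wt 3 in 1 cell each. Markers of several other cell types were also lower on average in fl/fl members. The summed dendritic and antigen presentation genes were at 326 ± 102 CPM in fl/fl members and 2591 ± 2316 CPM in wt/wt members, with ranges of 231 to 450 CPM and 161 to 4952 CPM. Erythroid markers were at 6043 ± 2816 CPM in fl/fl and 11890 ± 10189 CPM in wt/wt (3834 to 10128.5 and 2879 to 27988 CPM). Basophil, mast cell and eosinophil markers were at 37.6 ± 58.0 and 1198 ± 2590 CPM. Plasmacytoid dendritic cell genes were at 290 ± 230 and 1210 ± 1353 CPM, and megakaryocyte markers at 141 ± 70.3 and 433 ± 334 CPM. T and NK cell markers were at 576 ± 764 CPM in fl/fl and 384 ± 662 CPM in wt/wt, B-lineage markers at 453 ± 108 and 376 ± 228 CPM, and late neutrophil markers at 9680 ± 4311 and 9635 ± 7047 CPM. Their part in the result was not tested. Of 16 dendritic and antigen presentation genes in the tables, 12 were counted in members. The list summed to 1584 ± 2028 CPM in the members and 146 CPM in the other kept cells. Cd209a was at 92.0 ± 189 CPM in the members and 0 CPM in both other myeloid sets. The other 4 genes, Clec9a, Zbtb46, Batf3 and Irf4, were at 0 in all members. With the 12 cells that held genes of other types left out, Mndal no longer had enough counts to be tested, and Gm26924 had a log2 fold change of -1.82 (edgeR adjusted p = 0.889).

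Other genes of low p stayed far from the threshold, at an edgeR adjusted p of 0.813 each. Lower in fl/fl were Mtdh (log2 fold change -1.08 ± 0.39), Gnas (-0.98 ± 0.37), Rgs2 (-0.87 ± 0.40), Malat1 (-0.77 ± 0.33), Eif3a (-0.72 ± 0.33) and Ncl (-0.71 ± 0.32). Higher in fl/fl were the galectin gene Lgals1 (0.95 ± 0.37), the ribosomal protein genes Rps28 (0.84 ± 0.43) and Rps3 (0.50 ± 0.29), Sod1 (0.76 ± 0.33), Tuba1b (0.62 ± 0.32), mt-Cytb (0.54 ± 0.29) and Ly6c2. Ribosomal protein and tubulin genes share sequence with pseudogenes and paralogs, so their counts are uncertain. Sod1, which encodes superoxide dismutase, had 1381, 1890.5, 1620.0 and 1469 CPM in fl/fl, against 1106, 947, 273, 1151 and 483 CPM in wt/wt. Its groups did not overlap, while for Lgals1 they did (1193 to 3061 CPM in fl/fl, 273 to 1223 CPM in wt/wt).

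Ly6c2 (chromosome 15, 75108158 to 75111970) had 2143, 4681, 1620.0 and 4162 CPM in the fl/fl members, against 1431, 1857, 2181, 2231 and 1930.2 CPM in the wt/wt members. Only fl/fl 2 and fl/fl 4 lay above all wt/wt libraries. The log2 fold change was 0.63 ± 0.32 (edgeR adjusted p = 0.813). In the other kept cells Ly6c2 was at 845 ± 181 CPM in fl/fl and 381 ± 105 CPM in wt/wt (log2 fold change 1.22 ± 0.25, edgeR adjusted p = 0.237), where DESeq2 called it (1.22, adjusted p = 0.0192) and edgeR with no filter on low counts did too (1.17, adjusted p = 0.00100). The difference between both effects was -0.63 ± 0.33 (edgeR adjusted p = 0.818). The other kept cells are a mix of cell types, and tests on their sums do not account for its makeup. Ly6c2 was at 2839 CPM in the primary granule cells, 1239 CPM in the S100-rich cells and 83.8 CPM outside the myeloid sets. The S100-rich cells numbered 30, 57, 32 and 23 in fl/fl libraries, against 31, 22, 14, 14 and 34 in wt/wt. The part of this mix in the Ly6c2 difference was not tested. By cells, 26 of 30 fl/fl members and 26 of 35 wt/wt members had a count, and with the 12 cells that held genes of other types left out, 25 of 28 fl/fl members and 24 of 25 wt/wt members. The log2 fold change in the members was then 0.40 (edgeR adjusted p = 0.925).

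**Figure D5:**
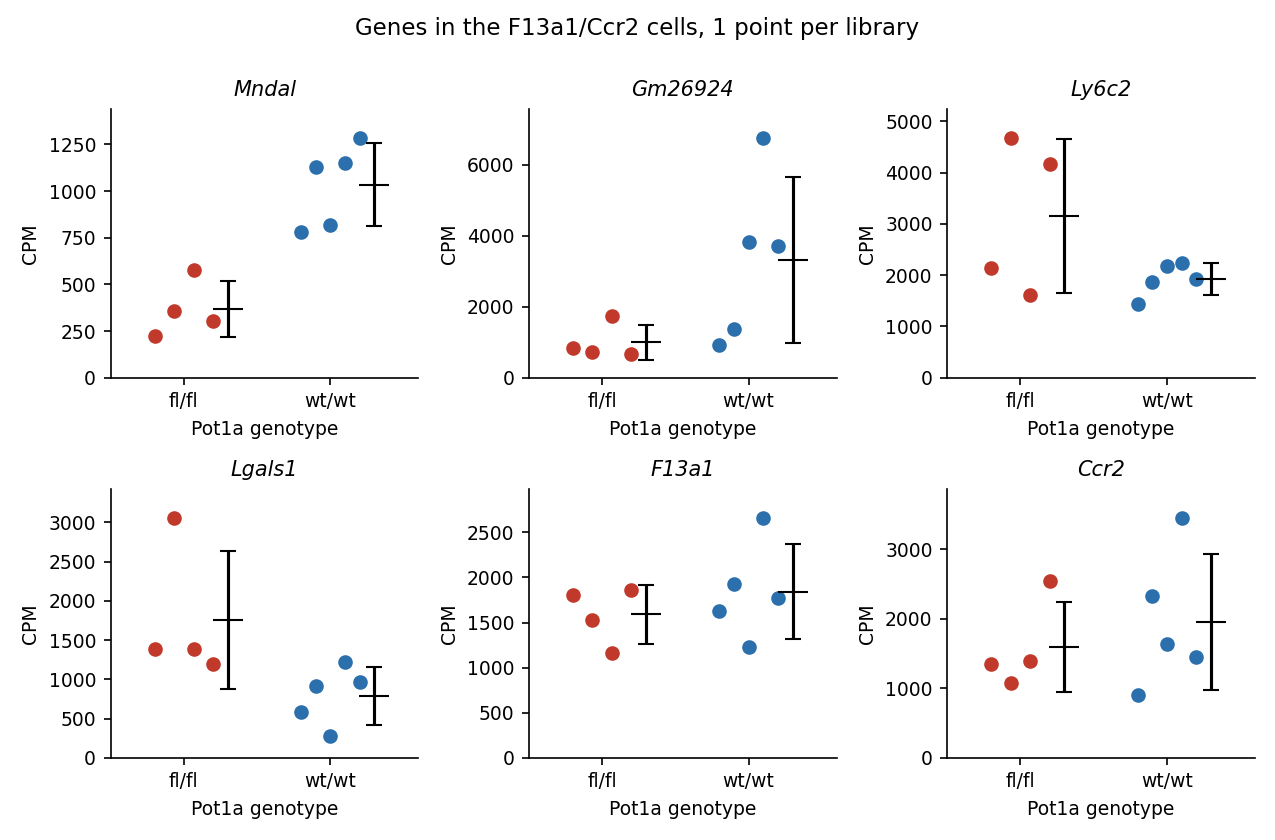
CPM of 6 genes in the summed F13a1/Ccr2 cells, with 1 point per library and the mean ± SD in black (fl/fl, n = 4; wt/wt, n = 5). All fl/fl points of Mndal (226 to 579 CPM) lie below all wt/wt points (781 to 1287 CPM), whereas F13a1 and Ccr2, genes of the rule, overlap between genotypes. Mndal, Gm26924, Ly6c2 and Lgals1 did not pass the edgeR threshold.

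The rule genes chose the members, so their levels by genotype are a description. Mpeg1 was at 249 ± 70.6 CPM in fl/fl and 584 ± 283 CPM in wt/wt, with overlapping libraries (180.1 to 347 and 195 to 864 CPM).

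No gene group held a called gene. Of the classical monocyte genes 4 could be tested (Ly6c2, Plac8, Lyz2 and Lgals3), 3 with a positive and 1 with a negative fold change, at a median of 0.27 against -0.01 over all 226 genes. Their summed level was 16151 ± 5065 CPM in fl/fl and 14002 ± 6706 CPM in wt/wt. Lysosome and cathepsin genes summed to 6721 ± 1576 and 6006 ± 869 CPM, and the 3 tested (Psap, Npc2 and Cst3) had a median log2 fold change of -0.01. The myeloid transcription factors summed to 3477 ± 976 CPM in fl/fl and 4012 ± 1645 CPM in wt/wt, and only Zeb2 was testable (log2 fold change -0.68). The 2 tested adaptors of Fc receptors, Fcer1g and Tyrobp, lay between -0.16 and 0.57. Of the 6 NADPH oxidase genes only Cyba was tested (-0.19). Interferon-induced genes summed to 4193 ± 1643 CPM in fl/fl and 4942 ± 1745 CPM in wt/wt, and the 3 tested (Ifitm3, Mndal and Ly6e) ran from -1.74 to 0.35, with 1 at an unadjusted p below 0.05. Of the G2/M genes 5 were tested, 1 with a positive and 4 with a negative fold change, at a median of -0.31. The glycolysis, S phase, receptor, pattern recognition and progenitor genes were all too low to be tested. The range of each summed list overlapped between genotypes.

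Imp3 and Pf4, chosen with earlier results of these data known, were followed into the F13a1/Ccr2 cells. Imp3 (chromosome 9, 56937475 to 56938398), which encodes a protein of the nucleolus needed to process ribosomal RNA, gave 20 counts in 14 members, too few to be tested. These were 7, 4, 2 and 6 counts in fl/fl libraries (197, 360.1, 231 and 184 CPM), against 0, 1, 0, 0 and 0 counts in wt/wt libraries (36.4 CPM in wt/wt 2). The fl/fl libraries all lay above the wt/wt libraries. In the other kept cells Imp3 had 237, 293, 253 and 282 CPM in fl/fl, against 42.3, 39.4, 130.4, 74.4 and 58.3 CPM in wt/wt, and it was the only gene called there (log2 fold change 2.00 ± 0.29, edgeR adjusted p = 0.00603, higher in 4 of 4 fl/fl libraries, 0.0242% of 4133 genes, of which 7.45% had an unadjusted p below 0.05). The members come from the same libraries, so their Imp3 counts are not independent evidence, and free RNA of other cells could not be told apart from RNA of the members. Pf4, a platelet chemokine, gave 1 count in all members. No gene differed in its genotype effect between members and other kept cells (edgeR, 226 genes, 0% called, 12 or 5.31% at an unadjusted p below 0.05). The smallest adjusted p was that of Gm26924 (-1.40 ± 0.39, edgeR adjusted p = 0.150).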

How the data were processed

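The authors aligned reads to mm10 with STAR and made tables with the Drop-seq software, as the labels and the study's methods state. The deposited values are whole-number counts per gene and barcode, not normalized. The methods speak of read counts. Not given in the sources used here are the annotation, whether reads were collapsed to molecules, and how the 100 barcodes of a library were chosen. Of the deposited columns 0 were left unused. The members, the 24 gene lists and the tests were chosen with earlier results of these data known.

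Barcodes with over 25% mitochondrial counts (1 barcode) and the 19 barcodes of wt/wt 3 shared with wt/wt 2 were dropped. Scrublet in scanpy 1.11.5 marked 34 kept cells as doublets, 5 of them members, and they stayed in except in an alternative. Shares and depths were compared over libraries by a 2-sided exact permutation test in scipy 1.17.1 (Python 3.11.15), whose 95% interval holds the shifts it does not reject. Counts were summed per library over members, or over other kept cells, and tested with edgeR 4.0.16 in R 4.3.3 (TMM, filterByExpr, quasi-likelihood, Benjamini-Hochberg at 0.05), with DESeq2 1.42.0 as an alternative. The difference between both genotype effects was tested with the library as a block. The fits were tested on simulated counts. CPM are a gene's counts scaled to 1000000 counts of the summed cells, and Wilson intervals and the limits of 0 counts cover counting error only.

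The genes named are the 8 rule genes, the 20 leading genes (counted in at least 20% of members, 50 CPM added to each mean), the 8 of smallest p in each direction (of which 1 is not reported here), the 4 highest of a list with any defining gene at 0, and Ly6c2, Imp3 and Pf4. Genes of other cell types within single members, Cd209a, Csf1r, Cebpe, Gfi1 and Spi1 fall outside this rule in part and were named after their values were seen. Alternatives changed the limits of the rule, the cells and libraries used, the normalization, the filter on low counts and the tool.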

Additional observations from a re-analysis of the deposited data

Results flagged for a closer look

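Among 58 groups of 4 or 5 library values of named genes in the F13a1/Ccr2 cells, 8 had 1 library far from the others by Dixon's test, which flags about 1 in 20 groups by chance. Ctss was high in fl/fl 3 (1736 CPM) and in wt/wt 3 (2863 CPM). In wt/wt 3, 13 Ctss counts came from 1 cell, which held MHC class II genes. Lgals1 was high in fl/fl 2 (3061 CPM), Gm26924 in fl/fl 3 (1736 CPM) and Rps28 in wt/wt 1 (781 CPM), and Gnas was low in fl/fl 2 (360.1 CPM). Imp3 in wt/wt 2 (36.4 CPM) and Pf4 in fl/fl 2 (90.0 CPM) are 1 count each, in groups that were otherwise at 0.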

How the results depend on the processing

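The F13a1/Ccr2 share among kept cells differed by 0.345 points between fl/fl and wt/wt, and its sign turned with a minimum of 2 rule counts (-0.804 points), with 5 (-0.105) and with a replicate block (-0.194). With 1 library left out it ran from -0.518 to 1.81, below 0 without fl/fl 1 (-0.155), wt/wt 3 (-0.518) or wt/wt 5 (-0.194). The share among myeloid cells (-4.09 points) ran from -6.20 to -0.915, nearest 0 without wt/wt 2 (-0.915) or fl/fl 2 (-0.967), and the depth difference from 240.0 to 1210 counts, lowest without fl/fl 4. No exact permutation p passed the threshold. The number of genes called in the members was 0 with edgeR, 1 with shared cells kept in both libraries, 2 with the replicate block (Gm26924 at -1.58, edgeR adjusted p = 0.00579, and Mndal at -1.63, edgeR adjusted p = 0.0484), 2 with DESeq2, 6 with no filter on low counts and 0 to 3 with 1 library left out. Those called were Mndal (without fl/fl 3 or wt/wt 1), Gm26924 (without fl/fl 3, wt/wt 1 or wt/wt 2) and Cd74 (without fl/fl 2 or fl/fl 3), all lower in fl/fl. The 6 genes called without the filter were Cd74, H2-Aa, H2-Ab1, H2-Eb1, Mcpt8 and Gzma, whose counts lay mostly in the 12 cells that held genes of other types. Same-numbered libraries correlated at 0.0743, 0.0947, -0.0875 and 0.132 in their deviations from the group means. These values rest on sums of 3 to 13 members per library. They cannot tell whether the numbers pair the libraries. In the other kept cells 1 gene was called, 3 with DESeq2, 69 with no filter and 1 to 3 with 1 library left out. For the difference of both genotype effects 0 genes were called, 1 with sex as a term, 2 with no filter and 0 with any 1 library left out. The log2 fold change of the rule gene Ms4a6c, a description, was -0.12 and became 0.0257 with a minimum of 2 rule counts, 0.140 with no filter and 0.0833 with libraries of at least 5 members, and ran from -0.344 to 0.0908 with 1 library left out (0.0833 without wt/wt 3, 0.0908 without wt/wt 4). Depth limits all of this, since a single count stood for 28.2 to 161 CPM in a library's members.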
